A study of Canis lupus familiaris with 55 samples.

Results

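Gonads of XX dog embryos from a pedigree with XX DSD, a disorder in which testis tissue forms without *SRY*, were compared with gonads of XX controls of the same age, d37 to d39 of gestation, counted from the luteinizing hormone surge of the dam. The members were taken by sample labels: 8 XX DSD libraries and 6 XX control libraries, 14 of the 55 libraries of the study. The 2 groups are called XX DSD gonads and XX controls. Each library held polyA RNA of the paired gonads of 1 embryo, flash frozen after dissection. The 8 XX DSD embryos were *SRY*-negative and came from 4 litters of a model pedigree of American cocker spaniel and beagle crosses. Of these, C3512, C3515, C3624, C3630, C3636 and C3642 were homozygous and C3632 and C3633 heterozygous for the guanine insertion on CFA9 (canine chromosome 9) that the study followed. C3512 and C3515 were of d37 and shared a litter, and the other 6 were of d39. The 6 controls had beagle parents without that insertion, and A1097, A1098 and A1101 (d37) were 1 litter and A1086, A1088 and A1089 (d39) another. The labels name no treatment for either group. The XX DSD group is a group at risk, since what each gonad would have become, a testis, an ovotestis or an ovary, was not known for these embryos. Insertion genotype, breed background and sequencing pool went with the group, so their share in any difference cannot be told apart from that of the pedigree's disorder.

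At this age the canine gonad consists of surface epithelium, supporting cells that line up as ovarian pre-granulosa or testicular Sertoli cells, interstitial cells with the steroid-making lineage, vessels, macrophages and primordial germ cells. Besides the factors that set the sex of the supporting cells, the organ depends on fatty acid and cholesterol synthesis for membranes and steroids, on basement membranes and tight junctions that hold epithelia together, on receptors that pass growth signals through small GTPases, and on the ribosomes and mitochondria that every growing tissue needs. Those functions are described here. Values are FPKM, the reads of a gene scaled to exon length and to library size, and tests were done on log2(FPKM + 1), a scale that understates changes of low genes. In whole gonads, fewer cells of a type and less RNA per cell cannot be told apart.

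Control and XX DSD libraries separated along the leading principal component of 9161 named loci with a mean of at least 4 FPKM (36.97% of variance). Controls lay between −26.8 and −19.8 and the 6 XX DSD libraries of d39 between 16.5 and 27.1. C3512 and C3515 stood apart from both, at 0.68 and 0.82 on this component and at −44.1 and −38.6 on the next (25.9% of variance). Their median correlation with the controls was 0.918 and 0.930, and with the other XX DSD libraries 0.911 and 0.920. The d39 XX DSD libraries had summed FPKM of 210038 to 1025722 at loci without an annotated gene, against 52671 to 93863 in controls and 80438 and 78700 in C3512 and C3515. Relative depth, read from the smallest steps of the FPKM values with the deepest library of the study at 1, ranged from 0.247 to 0.895 in XX DSD and from 0.299 to 0.847 in control libraries, and the geometric means of the groups had a ratio of 0.854 (two-sided exact permutation test over the 3003 assignments, p = 0.50). C3512 and C3515 had the lowest depths of both groups (0.247 and 0.268), and the d39 XX DSD libraries had 0.401 to 0.895. The paper reports that some samples of this age group clustered with older XX controls. It kept C3512 and C3515 at d37-39 by developmental criteria.

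**Figure D1:**
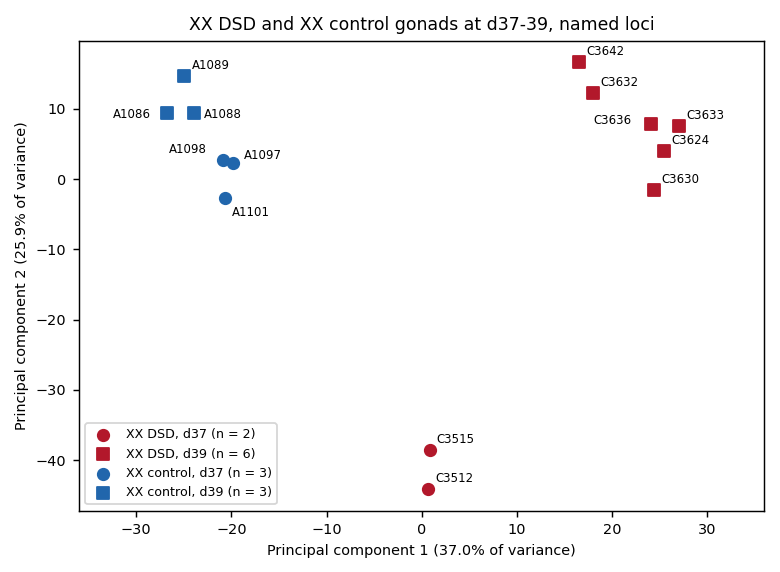
Principal components 1 (horizontal axis, 36.97% of variance) and 2 (vertical axis, 25.9%) of log2(FPKM + 1) over 9161 named loci, 1 point per library, in colour by group and with circles for d37 and squares for d39. The 6 controls lie at −19.8 or below on component 1, the 6 XX DSD libraries of d39 at 16.5 or above, and C3512 and C3515 lie at 0.68 and 0.82 there and at −44.1 and −38.6 on component 2.

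Across the table of annotated genes, 53 genes were higher (0.381% of 13896 tested) and 358 lower (2.58%) in XX DSD gonads by limma with an adjusted p under 0.05, at least a 2-fold ratio of group means and 4 FPKM or more on average in 1 of the groups, called stringent here. With an adjusted p alone, 2030 were higher and 2310 lower. Without C3512 and C3515 the stringent counts were 71 and 369. With litter as a random block, called the litter block below, they were 27 and 170, and with 1 value per litter 3 and 36. Litters were nested in the groups, 2 against 4, so a litter effect and a group effect could be separated only as far as 6 litters allow.

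Gene names came from the second table of the study, in which a transcript assembly gives names and positions of loci. A named locus can also hold assembled transcripts without a name, so its FPKM need not be of the named gene alone. Whether this holds for wide loci, such as those of *RFNG*, *CTGF* and *DPPA3*, was not tested. Of 11668 named loci tested in the second table, 1526 (13.1%) were higher and 1956 (16.8%) lower at an adjusted p under 0.05. The stringent criteria were met by 40 (0.343%) and 218 (1.87%). At 510 loci (4.37%) every XX DSD library lay above every control, and at 718 (6.15%) every XX DSD library lay below. The change went with 2 properties of the loci. Among the 3709 loci with the most annotated neighbours within 500000 bp on each side, 3.86% were higher and 29.9% lower, whereas among the 4148 with the fewest, 20.5% were higher and 8.12% lower. Loci with short exon sequence were also more often lower: 8.95% were higher and 22.9% lower in the shortest tercile (3890 loci, up to 3471 bp), and 16.8% and 12.7% in the longest (3888 loci). The rank correlation of the log2 fold change was −0.36 with gene density and 0.19 with exon length over 11668 loci, which share the same 14 libraries. The libraries differed in this. The rank correlation of a library's deviation from the mean of the 14 with gene density, over the 9161 loci named above, was −0.47 in both C3512 and C3515. It was −0.20 to 0.27 in the other XX DSD libraries and 0.17 to 0.40 in controls, with C3642 (0.27) inside the control range. With exon length it was 0.25 and 0.24 in C3512 and C3515, −0.11 to 0.13 in the others and −0.30 to 0.0040 in controls, with C3632, C3633 and C3642 inside the control range. With both trends removed, 40 loci were higher and 173 lower by the stringent criteria, and by adjusted p alone 11.5% and 15.8%. The part of breed or sequencing pool in these trends cannot be told apart from that of the group. Gene groups are lists of genes of one function, chosen with earlier results of these data known, so their counts are descriptions. These counts are by adjusted p alone and are to be read beside 13.1% higher and 16.8% lower. Over all these lists 288 genes were called, and 54 with the litter block, beside 3482 and 591 of the 11668 named loci. The members tested over all lists were not totalled. These 2 counts therefore carry no share and are not a result about the lists. Over all named loci the shares higher and lower were 1.85% and 3.21% with the litter block and 12.2% and 13.6% with d39 embryos alone. They were 23.4% and 32.7% with d37 embryos alone (2 against 3, 1 litter each), and 15.1% and 16.2% without C3512 and C3515. Each gene given below as higher or lower over all 14 libraries also passed without C3512 and C3515.

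**Figure D2:**
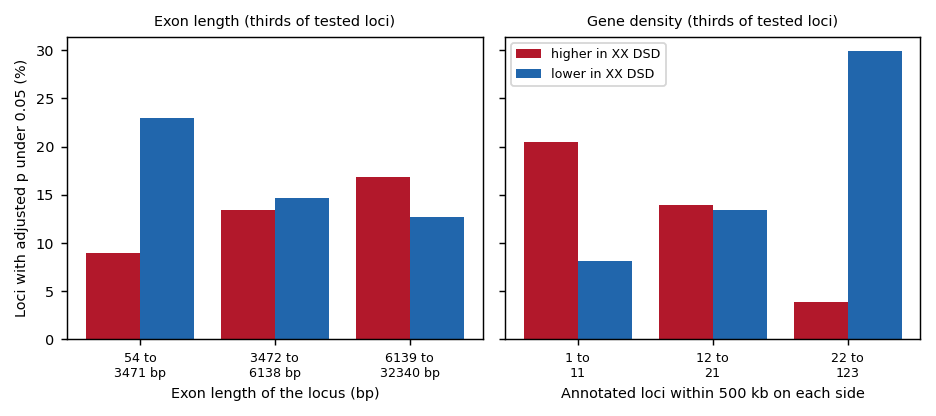
Share of named loci (vertical axis, %) with an adjusted p under 0.05 that were higher (red) or lower (blue) in XX DSD gonads, by tercile of exon length (left) and of the number of annotated loci within 500000 bp on each side (right). In the densest tercile 29.9% of loci were lower and 3.86% higher, in the sparsest 8.12% and 20.5%.

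Among genes with a symbol, 5 were higher by the stringent criteria with no overlap of the groups: *NEXN*, *SCD5*, *LPAR3*, *THSD4* and *ADCYAP1R1*. *NEXN* (chr6:68960268-69015632), which encodes an actin-binding protein of muscle-like cells, ranged from 4.80 to 20.0 FPKM (median 6.84) in XX DSD gonads and from 1.95 to 2.91 FPKM (median 2.30) in XX controls. It rose 3.94-fold (log2 fold change 1.47, SE 0.26, adjusted p = 0.00080), and the highest values were those of C3512 and C3515 (20.0 and 15.5 FPKM), with 4.80 to 9.04 in the other XX DSD libraries. *SCD5* (chr32:6592628-6745176), a stearoyl-CoA desaturase that puts a double bond into fatty acids, ranged from 8.48 to 17.0 FPKM (median 11.2) in XX DSD gonads and from 3.29 to 5.55 FPKM (median 4.51) in XX controls. The XX DSD libraries all exceeded the controls, 2.61-fold on average (log2 fold change 1.20, SE 0.12, adjusted p = 3.3e-05). *LPAR3* (chr6:63016925-63114741), a receptor of lysophosphatidic acid, had 2.34 to 5.38 FPKM in XX controls (median 3.62) and 6.41 to 12.1 FPKM in XX DSD gonads (median 8.14). Its rise was 2.40-fold (log2 fold change 1.10, SE 0.18, adjusted p = 0.00063).

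*THSD4* (chr30:34903017-35358667), a secreted protein that helps fibrillin microfibrils form, averaged 7.65 ± 1.58 FPKM (SD, n = 6) in XX controls and 15.6 ± 3.93 FPKM (n = 8) in XX DSD gonads, a rise of 2.04-fold (adjusted p = 0.00051). The value in A1101 (4.77 FPKM) was the lowest of all libraries and that in C3624 (23.8 FPKM) the highest. *ADCYAP1R1* (chr14:43707626-43761564), the receptor of the neuropeptide PACAP, rose 2.02-fold, from 3.00 to 4.68 FPKM in controls to 6.22 to 9.89 FPKM (adjusted p = 0.00014). All 5 passed with the litter block, and with d37 or d39 embryos alone, and 2 of 5 with 1 value per litter.

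Of the 95 stringent genes with a symbol that fell without overlap, the 15 with the largest ratio were *NUPR1L*, *PRKCDBP*, *RGS11*, *TIMM13*, *SOX15*, *GADD45G*, *TJP3*, *CCDC85B*, *NKD2*, *ODF3B*, *C4orf48*, *FGFRL1*, *C1orf86*, *FBXL15* and *RASD1*. *PRKCDBP* (chr21:29661980-29663263), a caveolar protein also known as cavin-3, ranged from 9.93 to 53.9 FPKM (median 14.3) in XX DSD gonads and from 69.9 to 136 FPKM (median 100.3) in XX controls. The d37 libraries C3512 and C3515 were the highest of the XX DSD group (47.0 and 53.9 FPKM), while the d39 libraries lay between 9.93 and 18.9, and the mean fell 4.398-fold (log2 fold change −2.33, SE 0.35, adjusted p = 0.00030). *RGS11* (chr6:40225929-40234409), which speeds the GTPase of G protein alpha subunits, fell 4.34-fold, from 5.06 ± 1.72 to 1.17 ± 0.669 FPKM (adjusted p = 0.00022). *RASD1* (chr5:41964950-41969966), a Ras-like GTPase, ranged from 3.48 to 7.53 FPKM (median 5.13) in XX DSD gonads and from 13.5 to 20.1 FPKM (median 16.1) in XX controls. Its 3.19-fold fall had the lowest adjusted p of the 15 (log2 fold change −1.52, SE 0.14, adjusted p = 1.4e-05).

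*NUPR1L* (chr6:588869-590763), related to the stress-response gene *NUPR1*, fell 4.65-fold, from a median of 5.997 to 1.24 FPKM (adjusted p = 9.5e-05). *SOX15* (chr5:32508074-32509333), a SOX factor outside the testis-determining group, had 3.17 to 5.74 FPKM in XX controls (median 3.76) and 0.124 to 2.66 FPKM in XX DSD gonads (median 0.765). It fell 3.96-fold (adjusted p = 0.00057), and it was the only one of the 15 not to pass with the litter block (adjusted p = 0.051). *GADD45G* (chr1:96744758-96746752), a stress- and growth-arrest protein, had 2.91 to 5.23 FPKM in XX controls (median 4.30) and 0.581 to 1.48 FPKM in XX DSD gonads (median 1.19). The fall was 3.81-fold (log2 fold change −1.30, SE 0.13, adjusted p = 2.5e-05). *CCDC85B* (chr18:51373940-51376568), a coiled-coil protein of cell junctions, fell 3.55-fold, from 37.7 ± 5.02 to 10.6 ± 5.24 FPKM (adjusted p = 8.4e-05).

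*NKD2* (chr34:11447888-11469324) inhibits WNT signalling through Dishevelled and fell 3.48-fold (adjusted p = 4.7e-05). *FBXL15* (chr28:14926498-14929866), the F-box protein that targets the ubiquitin ligase SMURF1 of the BMP pathway, fell 3.27-fold, from 6.24 ± 0.985 to 1.91 ± 0.523 FPKM (adjusted p = 2.5e-05). *ODF3B* (chr10:16781325-16787969; 3.38-fold), *C4orf48* (chr3:62118551-62121989; 3.33-fold) and *C1orf86* (chr5:57101202-57120909; 3.27-fold) fell as well, with adjusted p-values of 5.0e-05, 8.2e-05 and 7.8e-05. *TIMM13*, a chaperone of the mitochondrial intermembrane space, was read at a locus of only 99 bp (chr20:56666069-56666167), where FPKM is uncertain. It fell 3.98-fold (adjusted p = 0.0011), to 506 and 581 FPKM in C3512 and C3515 and to 73.7 to 301 FPKM in the other XX DSD libraries, against 786 FPKM or more in every control. *TJP3* and *FGFRL1* are described with their groups.

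**Figure D3:**
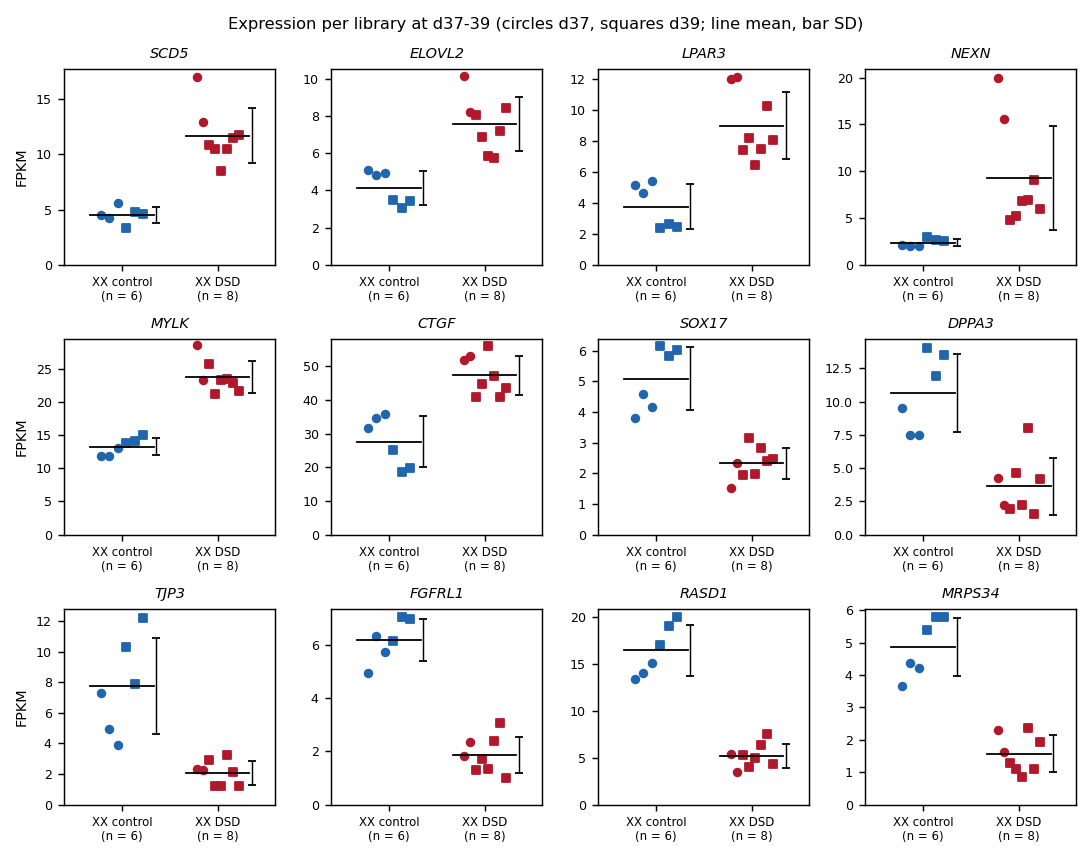
FPKM (vertical axes) of 12 genes in each library of the XX control (blue, n = 6) and XX DSD (red, n = 8) groups, with circles for d37, squares for d39, a line at the mean and a bar of 1 SD on each side. The genes were picked by hand from those described, and *SCD5*, *LPAR3*, *NEXN*, *TJP3*, *FGFRL1* and *RASD1* had been named by a rule that required separate groups. That the groups do not overlap in 11 of the 12 panels is therefore no result. Over all named loci 4.37% were separate and higher and 6.15% separate and lower. In the panel of *DPPA3* the XX DSD library C3642 (7.99 FPKM) lies above the control A1098 (7.47 FPKM).

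Of the stringent genes with the highest expression, *APOE* (chr1:110525579-110528624), a lipid carrier that takes up cholesterol-rich particles, ranged from 196.2 to 433 FPKM (median 257) in XX DSD gonads and from 401 to 702 FPKM (median 569) in XX controls. The fall of 2.03-fold (log2 fold change −1.05, SE 0.18, adjusted p = 0.00074) left 1 XX DSD library, C3642 with 433 FPKM, above the lowest control, A1098 with 401 FPKM. *CEP41* (chr14:6502697-6558116), a centrosomal protein, had 73.1 to 86.3 FPKM in controls and 216.9 to 391 FPKM in the d39 XX DSD libraries, but 59.0 and 55.0 FPKM in C3512 and C3515. Over all 8 it was 2.86-fold higher (adjusted p = 0.029), and with d37 embryos alone it was lower (−0.38, adjusted p = 0.0041). A locus named *Xist_exon4* (chrX:57322822-57356125), part of the X inactivation RNA, ranged from 12.9 to 171.4 FPKM (median 75.3) in XX DSD gonads and from 143 to 297 FPKM (median 240.5) in XX controls. The 3.0001-fold fall (adjusted p = 0.0059) left C3633 (171.4 FPKM) above A1101 and A1089 (143 and 150 FPKM). *C1orf115* (chr38:15374894-15378988) fell 2.59-fold (adjusted p = 0.0063). None of these 4 passed with the litter block (adjusted p = 0.064, 0.11, 0.090 and 0.13).

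Genes of fatty acid and cholesterol synthesis rose more often than they fell. Of 18 tested genes of fatty acid synthesis and desaturation, 6 were higher and 2 lower, with a median log2 fold change of 0.22 against −0.01 over all loci. Besides *SCD5*, the elongases of long fatty acids rose. *ELOVL2* (chr35:10690310-10740958), which elongates polyunsaturated fatty acids, ranged from 5.75 to 10.2 FPKM (median 7.66) in XX DSD gonads and from 3.05 to 5.12 FPKM (median 4.18) in XX controls. The groups were separate, with a rise of 1.83-fold (log2 fold change 0.74, SE 0.13, adjusted p = 0.00090). *ELOVL5* (chr12:20732527-20808144), which acts on the same chains before it, rose 1.40-fold, from 36.02 ± 2.55 to 50.3 ± 7.49 FPKM (adjusted p = 0.0017). *SREBF1* (chr5:41663813-41688997), the transcription factor that drives fatty acid synthesis, fell instead, from 15.8 ± 1.48 to 10.9 ± 2.27 FPKM (1.45-fold, adjusted p = 0.0038). With the litter block 2 of the 18 genes, *SCD5* and *ELOVL2*, were higher (adjusted p = 0.0056 and 0.021) and none was lower, so *ELOVL5* (0.082) and *SREBF1* (0.10) did not pass. Without C3512 and C3515, 8 were higher and 2 lower.

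Of 21 tested genes of cholesterol synthesis, 8 were higher and 1 lower, with a median log2 fold change of 0.24. *SQLE* (chr13:22992617-23018216), squalene epoxidase, rose 1.55-fold, with 30.97 to 67.5 FPKM in controls and 50.8 to 80.9 in XX DSD gonads (adjusted p = 0.0066). *IDI1* (chr2:33927243-33930720), isopentenyl diphosphate isomerase, rose 1.47-fold (adjusted p = 0.0043). *PMVK* (chr7:42532908-42571491), phosphomevalonate kinase, was the gene that fell (1.51-fold, adjusted p = 0.0067). None of the 21 passed with the litter block, where these 3 had adjusted p-values of 0.13, 0.11 and 0.11. With d39 embryos alone 10 were higher and none lower, with d37 embryos alone 6 were higher and 6 lower, and without C3512 and C3515 7 were higher and 1 lower.

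Steroid synthesis uses that cholesterol. Of 7 genes of Leydig cells and steroidogenesis tested, none passed, although 6 of 7 log2 fold changes were positive and their median was 0.46. *CYP17A1* (chr28:15282085-15299121), which makes androgen precursors, ranged from 382 to 1101.04 FPKM (median 1020.0) in XX DSD gonads and from 192 to 1288 FPKM (median 365) in XX controls (log2 fold change 0.90, SE 0.37, adjusted p = 0.079). *CYP11A1* (chr30:37472208-37487340), which cuts the cholesterol side chain, had 70.2 to 281 FPKM in XX controls (median 99.2) and 102 to 304 FPKM in XX DSD gonads (median 239.7) (log2 fold change 0.83, SE 0.30, adjusted p = 0.050). The spread within groups was wide for both: the d37 control A1101 had the highest value of *CYP17A1* of all 14 libraries, 1288 FPKM, and C3636 the lowest of the XX DSD group, 382 FPKM. With d39 embryos alone 4 of the 7 were higher, among them *CYP17A1* (1.58, adjusted p = 0.0098) and *CYP11A1* (1.36, adjusted p = 0.013). The summed level of 8 such genes ranged from 749 to 2209 FPKM in XX DSD gonads and from 497 to 2802 FPKM in controls.

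Of 7 tested genes of primordial germ cells none was higher and 4 were lower, 1 of them also with the litter block. All 7 log2 fold changes were negative, with a median of −0.83. *SOX17* (chr29:5979003-5981701), a factor that specifies primordial germ cells and is also made by endothelium, ranged from 1.52 to 3.14 FPKM (median 2.35) in XX DSD gonads and from 3.80 to 6.14 FPKM (median 5.21) in XX controls. It fell 2.19-fold with no overlap (log2 fold change −0.87, SE 0.13, adjusted p = 0.00024). *DPPA3* (chr27:37126545-37196999), which protects the methylation state of germ cells and early embryos, ranged from 1.58 to 7.99 FPKM (median 3.199) in XX DSD gonads and from 7.47 to 14.1 FPKM (median 10.7) in XX controls. The fall was 2.94-fold (log2 fold change −1.41, SE 0.26, adjusted p = 0.0011). *LIN28A* (chr2:73613069-73628414), an RNA-binding protein that blocks let-7 maturation, fell 1.98-fold, from 9.60 ± 1.65 to 4.84 ± 1.66 FPKM, with no overlap (adjusted p = 0.0016). *TFAP2C* (chr24:41783430-41797500), a partner of SOX17 in germ cell specification, fell 2.05-fold (adjusted p = 0.0070).

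The 4 falls were seen with d39 embryos alone and with d37 embryos alone (adjusted p of 0.00059 and 0.0048 for *SOX17*, and of 0.0067 and 0.0061 for *DPPA3*). In the litter block *SOX17* passed (adjusted p = 0.015) and *DPPA3*, *LIN28A* and *TFAP2C* did not (adjusted p = 0.068, 0.068 and 0.086). The summed level of the 12 germ cell genes measured was 20.3 to 41.1 FPKM in XX DSD gonads and 40.7 to 53.8 FPKM in controls. *KIT*, the stem cell factor receptor of germ cells that other gonadal cells also express, had 8.27 ± 1.42 FPKM (SD, n = 6) in XX controls and 8.26 ± 1.61 FPKM (n = 8) in XX DSD gonads, with a log2 fold change of −0.01 with an SE of 0.12, adjusted p = 0.97. *KITLG* (chr15:29586536-29672330), its ligand, made by supporting cells, rose 1.43-fold, from 30.7 ± 6.07 to 43.99 ± 6.81 FPKM (adjusted p = 0.0064, and 0.051 with the litter block). This rise was not called with d39 embryos alone. *DDX4*, *NANOG*, *TDRD1*, *TDRD9* and *PIWIL2* were under 1 FPKM in every library. Of 4 meiosis genes tested, *SYCE1* (chr28:41149171-41157391), of the synaptonemal complex, was lower. It had 0 to 1.27 FPKM in XX DSD gonads and 0.401 to 2.79 in controls (adjusted p = 0.0061), and its litter-block p was 0.15. *STRA8*, the gene that starts meiosis, was under 1 FPKM throughout.

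Of 25 tested genes of cadherins, tight junctions and epithelial polarity, 10 were lower and 3 higher, with a median log2 fold change of −0.18. The basolateral polarity regulators *LLGL1* and *LLGL2* both fell. *LLGL1* (chr5:41315287-41333409) had 29.4 to 35.2 FPKM in XX controls (median 31.5) and 17.98 to 23.7 FPKM in XX DSD gonads (median 19.5) (log2 fold change −0.65, SE 0.07, adjusted p = 4.1e-05). *LLGL2* (chr9:4975235-5008703) went from 4.23 ± 0.431 to 2.46 ± 0.61 FPKM (adjusted p = 0.0013). The groups were separate for each. *TJP3* (chr20:55720729-55747466), the scaffold ZO-3 of tight junctions, ranged from 1.19 to 3.26 FPKM (median 2.19) in XX DSD gonads and from 3.93 to 12.2 FPKM (median 7.59) in XX controls, and its fall of 3.75-fold was the largest of the group (log2 fold change −1.47, SE 0.22, adjusted p = 0.00031). *CLDN3* (chr6:6534229-6535237), a tight-junction claudin, was low in all libraries and fell 3.61-fold, with 1.19 to 2.50 FPKM in controls and 0.0450 to 0.959 in XX DSD gonads (adjusted p = 0.0014). The litter block left 3 of the 25 genes lower and none higher, *LLGL1*, *TJP3* and *CLDN3* (adjusted p = 0.013, 0.028 and 0.040), and *LLGL2* had 0.067. With the trends of length and density removed, 11 were lower and none higher, and without C3512 and C3515 10 and 2.

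*BNC1* (chr3:55040421-55069341), a zinc finger factor of surface epithelium, fell 1.42-fold, from 14.3 ± 2.26 to 10.1 ± 1.52 FPKM (adjusted p = 0.0064; 0.067 with the litter block). The summed level of 8 surface epithelium genes measured was 126 to 188 FPKM in XX DSD gonads and 156 to 195.1 FPKM in controls, ranges that overlap. Of 9 genes of keratins, plakins and desmosomes, 2 were higher and 1 lower, and none passed with the litter block. Of 34 cilium genes, 1 was higher and 4 were lower, against none and 1 with the litter block and 16 and 7 with d37 embryos alone.

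Of 25 collagen genes tested, 3 were higher and 4 lower (median 0.13). The 3 higher calls were lost with the length and density trends removed, which left none higher and 4 lower (median −0.01), and the litter block left none and 1. With d37 embryos alone 2 were higher and 12 lower. *COL27A1* (chr11:68412813-68548619), a fibrillar collagen of cartilage and other matrix, ranged from 4.46 to 9.07 FPKM (median 5.46) in XX DSD gonads and from 10.4 to 15.2 FPKM (median 12.7) in XX controls. It fell 2.10-fold with separate groups (log2 fold change −0.98, SE 0.14, adjusted p = 0.00018). *COL9A3* (chr24:46653413-46667574) and *COL9A2* (chr15:2646479-2661552), chains of the fibril-associated collagen IX, fell 3.12-fold and 3.70-fold (adjusted p = 0.00030 and 0.0042). *COL18A1* (chr31:38891336-38959861), a basement membrane collagen and the source of endostatin, fell 1.799-fold, from 52.6 ± 6.35 to 29.3 ± 10.3 FPKM (adjusted p = 0.0017). Of these only *COL27A1* passed with the litter block (adjusted p = 0.022, against 0.052, 0.15 and 0.11).

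Among 35 matrix glycoproteins and proteoglycans, 7 were higher and 3 lower, against 1 and 1 with the litter block and 8 and 15 with d37 embryos alone. *FBN1* (chr30:14638884-14864146), the fibrillin of microfibrils, rose 1.44-fold, from 14.1 ± 1.18 to 20.4 ± 2.22 FPKM (log2 fold change 0.50, SE 0.08, adjusted p = 0.00042). *LAMC1* (chr7:16406353-16529051), the gamma chain of most laminins, rose 1.23-fold (adjusted p = 0.0022), a call that was lost with the length and density trends removed (adjusted p = 0.084). *LAMA5*, an alpha chain of basement membrane laminins, was read at a locus of 2810 bp of exon (chr24:46314597-46318465) and ranged from 6.02 to 13.8 FPKM (median 8.86) in XX DSD gonads and from 15.4 to 26.7 FPKM (median 20.0) in XX controls. It fell 2.14-fold (log2 fold change −1.04, SE 0.18, adjusted p = 0.00090). *LTBP3* (chr18:51653754-51668012), which holds latent TGF beta in the matrix, fell 1.43-fold (adjusted p = 0.0018). Under the litter block *FBN1* and *LTBP3* passed (adjusted p = 0.025 and 0.046) and *LAMC1* and *LAMA5* did not (0.069 and 0.059).

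Of 25 matrix proteases and inhibitors, 4 were higher and 2 lower, against 2 and 1 with the litter block and 3 and 11 with d37 embryos alone. *TIMP3* (chr10:30622923-30681879), an inhibitor of metalloproteinases bound to the matrix, had 95.4 to 125 FPKM in XX controls (median 111) and 147 to 181 FPKM in XX DSD gonads (median 160.1). Its rise of 1.46-fold separated the groups (log2 fold change 0.55, SE 0.07, adjusted p = 0.00012). *MMP16* (chr29:33908870-34208067), a membrane-bound metalloproteinase, rose 1.62-fold, from 5.19 ± 1.05 to 8.38 ± 1.05 FPKM (adjusted p = 0.00076). *ADAMTS10* (chr20:53089604-53110540), a protease that binds fibrillin, fell 2.04-fold, from 11.2 ± 2.07 to 5.49 ± 0.65 FPKM (adjusted p = 5.0e-05). *ADAMTS19* (chr11:18272402-18501070), a protease expressed in the fetal ovary, fell 1.65-fold, from 20.0 ± 5.72 to 12.1 ± 1.07 FPKM (adjusted p = 0.0046). The first 3 passed with the litter block (adjusted p = 0.0097, 0.043 and 0.017) and *ADAMTS19* did not (0.068).

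Integrin and focal adhesion genes gave 4 higher and 4 lower of 25, against none and 1 with the litter block and 1 and 4 with the trends removed. *ITGA7* (chr10:90359-110862), a laminin-binding integrin chain, fell 1.48-fold, from 13.4 ± 0.937 to 9.05 ± 1.14 FPKM (adjusted p = 0.00038). *ITGAV* (chr36:28815197-28890642), the chain shared by integrins that free TGF beta, rose 1.23-fold (adjusted p = 0.013), and not with the trends removed (adjusted p = 0.16) or with the litter block (0.087). Contractile genes gave 1 higher and 2 lower of 15. The gene that rose was *MYLK* (chr33:26663112-26867389), the kinase that starts smooth muscle contraction, which ranged from 21.2 to 28.6 FPKM (median 23.3) in XX DSD gonads and from 11.8 to 15.01 FPKM (median 13.4) in XX controls. Every XX DSD library lay above every control, 1.79-fold on average (log2 fold change 0.79, SE 0.08, adjusted p = 2.5e-05).

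The Hippo pathway, which restrains growth by keeping the coactivators YAP and TAZ out of the nucleus, had 8 members higher and 2 lower of 21 tested (median 0.16). *WWTR1* (chr23:44277570-44426531), which encodes TAZ, went from 26.0 ± 1.004 to 34.4 ± 3.31 FPKM, a rise of 1.33-fold (log2 fold change 0.39, SE 0.07, adjusted p = 0.00075). *TEAD1* (chr21:35667804-35936028), their DNA-binding partner, rose 1.20-fold (adjusted p = 0.0047). *CTGF* (chr1:25387130-25511138), a matrix-cell protein and target of YAP, ranged from 40.8 to 56.2 FPKM (median 46.1) in XX DSD gonads and from 18.7 to 35.9 FPKM (median 28.4) in XX controls. The groups were separate and the rise 1.71-fold (log2 fold change 0.79, SE 0.14, adjusted p = 0.0011). *AMOTL2* (chr23:31143684-31167007), an angiomotin that binds YAP and is itself a target, fell 1.498-fold, from 28.5 ± 2.28 to 19.0 ± 3.53 FPKM (adjusted p = 0.0018). The litter block kept *CTGF* and *AMOTL2* (adjusted p = 0.023 and 0.045), *WWTR1* and *TEAD1* did not pass (0.055 and 0.082), and *TEAD1* was also lost with the trends removed (0.51). Without C3512 and C3515, 11 of the 21 were higher and 1 lower, and the litter block left 1 and 1.

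Small GTPases and their regulators had the lowest median of the function groups, −0.22, with 4 of 41 tested higher and 11 lower. The group also held *RGS11* and *RGS19*, which act on G protein alpha subunits and not on small GTPases. The litter block left 2 higher and 3 lower. *RASD1* and *RGS11* were given above. *RGS19* (chr24:47511414-47518469), another regulator of G protein signalling, ranged from 2.36 to 5.23 FPKM (median 3.87) in XX DSD gonads and from 6.24 to 7.65 FPKM (median 7.09) in XX controls. It fell 1.88-fold with separate groups (adjusted p = 0.00047). *CDC42* (chr2:77150201-77199290), a small GTPase of cell polarity and actin, rose 1.37-fold, from 188 ± 5.20 to 258 ± 26.6 FPKM (log2 fold change 0.45, SE 0.07, adjusted p = 0.00039). Both passed with the litter block (adjusted p = 0.030 and 0.022). With d37 embryos alone 6 were higher and 23 lower, and with d39 embryos alone 6 and 8, with a median of −0.06. Without C3512 and C3515 the counts were 6 and 9 and the median −0.05.

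FGF and EGF signalling gave 4 higher and 5 lower of 25, and 1 and 2 with the litter block. *FGFRL1* (chr3:91498968-91509623), an FGF receptor that lacks the kinase, ranged from 1.01 to 3.06 FPKM (median 1.77) in XX DSD gonads and from 4.94 to 7.06 FPKM (median 6.26) in XX controls. Its fall of 3.32-fold was the largest of the group (log2 fold change −1.36, SE 0.15, adjusted p = 4.0e-05). *FGFR3* (chr3:62308897-62319217), a kinase receptor, fell 1.44-fold, from 13.3 ± 1.24 to 9.25 ± 2.12 FPKM (adjusted p = 0.0086; 0.077 with the litter block). Of the feedback genes, *DUSP4* (chr16:34799047-34817289), a MAP kinase phosphatase, fell 1.45-fold (adjusted p = 0.00085) and *SPRED1* (chr30:5593238-5716076), an inhibitor of RAS and RAF signalling, rose 1.35-fold (adjusted p = 0.00083). The groups were separate for all 4 genes, and *FGFR3* did not pass with d39 embryos alone (adjusted p = 0.11).

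BMP and TGF beta genes gave 9 higher and 8 lower of 36 (median 0.13), and 1 and 1 with the litter block. The ligand *BMP5* (chr12:23087864-23202154) ranged from 2.23 to 4.50 FPKM (median 2.996) in XX DSD gonads and from 0.924 to 1.95 FPKM (median 1.51) in XX controls, a rise of 2.09-fold (log2 fold change 0.71, SE 0.14, adjusted p = 0.0016). The receptor *BMPR1B* (chr32:17716087-17978113) rose 1.77-fold, from 1.70 ± 0.225 to 3.01 ± 0.517 FPKM (adjusted p = 0.0010). *ID3* (chr2:75880627-75882244), a helix-loop-helix inhibitor that BMP signals induce, fell 1.76-fold, from 32.4 ± 7.12 to 18.4 ± 4.55 FPKM (adjusted p = 0.0016). A ligand and a receptor of the pathway rose while a target fell. None of the 3 passed with the litter block (adjusted p = 0.11, 0.068 and 0.068).

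Hedgehog and Notch genes gave 2 higher and 7 lower of 31 (median −0.11), and 1 and 2 with the litter block. *NOTCH3* (chr20:46941509-46978119), the Notch receptor of vessel walls and interstitial cells, ranged from 12.9 to 22.1 FPKM (median 14.2) in XX DSD gonads and from 21.6 to 26.6 FPKM (median 24.96) in XX controls. It fell 1.57-fold (adjusted p = 0.00083). *RFNG* (chr9:122266-270801), a glycosyltransferase that modifies Notch, fell 1.73-fold, from 42.8 ± 1.81 to 24.7 ± 4.90 FPKM, with separate groups (log2 fold change −0.79, SE 0.11, adjusted p = 0.00017). *RBPJ* (chr3:84060419-84164169), the DNA-binding factor of the pathway, rose 1.41-fold, from 10.6 ± 0.759 to 14.9 ± 1.49 FPKM (adjusted p = 0.00053). *HES6* (chr25:48710633-48712012), which counters the repressor HES1, fell 2.15-fold (adjusted p = 0.0013). *NOTCH3* had an adjusted p of 0.069 with the litter block, and *RFNG*, *RBPJ* and *HES6* passed there (0.020, 0.035 and 0.041).

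Of 25 receptors and ligands for lysophospholipids, prostaglandins and peptides, 4 were higher and 5 lower, against 1 and 1 with the litter block. *PTH1R* (chr20:41901764-41929216), the receptor of parathyroid hormone and its related protein, ranged from 8.31 to 11.1 FPKM (median 9.23) in XX DSD gonads and from 14.3 to 19.6 FPKM (median 16.0) in XX controls. It fell 1.71-fold with separate groups (log2 fold change −0.71, SE 0.08, adjusted p = 5.5e-05). *EDNRB* (chr22:31414145-31439014), an endothelin receptor, rose 2.09-fold, with 3.50 FPKM in C3624 and 4.46 in C3636, within the control range, and 6.36 to 9.97 in the others (adjusted p = 0.010). *PTGES* (chr9:54067096-54083945), which makes prostaglandin E2, fell 2.41-fold at levels of 2.26 FPKM or less (adjusted p = 0.0049). *PTH1R* passed with the litter block (adjusted p = 0.016) and *EDNRB* and *PTGES* did not (0.19 and 0.14).

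Axon guidance genes, which also steer migrating cells and vessels, gave 5 higher and 9 lower of 49 (median −0.12). The litter block left none higher and 2 lower, and d37 embryos alone gave 6 and 31. *PLXNB3* (chrX:121579238-121592983), a plexin receptor of semaphorins, ranged from 0.773 to 1.81 FPKM (median 1.12) in XX DSD gonads and from 2.29 to 3.09 FPKM (median 2.98) in XX controls, a fall of 2.37-fold (adjusted p = 0.00017). *RGMA* (chr3:47044073-47093356), a neogenin ligand and BMP co-receptor, fell 1.98-fold, from 17.2 ± 1.79 to 8.68 ± 3.03 FPKM, with separate groups (adjusted p = 0.00080; 0.069 with the litter block). *SEMA5B* (chr33:25971182-26090959), a semaphorin, fell 1.69-fold (adjusted p = 0.0036). Of 17 retinoic acid genes, 1 was higher and none lower. It was *ALDH1A1* (chr1:84940066-84994781), a retinaldehyde dehydrogenase, which ranged from 158 to 232 FPKM (median 199) in XX DSD gonads and from 123 to 140.2 FPKM (median 133) in XX controls. The rise was 1.49-fold with separate groups (log2 fold change 0.56, SE 0.08, adjusted p = 0.00029).

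Of 44 tested genes of mitochondrial ribosomes, 16 fell and 1 rose, with a median of −0.15. *MRPS34* (chr6:39130544-39131714), a small-subunit protein, ranged from 0.865 to 2.36 FPKM (median 1.44) in XX DSD gonads and from 3.67 to 5.78 FPKM (median 4.87) in XX controls. The fall was 3.11-fold (log2 fold change −1.21, SE 0.15, adjusted p = 7.8e-05). *MRPL41* (chr9:48215992-48221682), *MRPS12* (chr1:114187098-114192543) and *MRPL23* (chr18:46166685-46173774), also proteins of these ribosomes, fell 1.84-fold, 1.71-fold and 1.597-fold (adjusted p = 0.00068, 0.00067 and 0.00034). Groups were separate for all 4. Of the 44, 2 were lower with the litter block, *MRPS34* and *MRPL23* (adjusted p = 0.016 and 0.018, against 0.065 for *MRPL41* and 0.069 for *MRPS12*). With the trends removed, as without C3512 and C3515, 16 were lower and 4 higher.

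Respiratory chain subunits gave 2 higher and 7 lower of 31 (median −0.11), and none either way with the litter block. *COX5B* (chr10:44979601-44985971), of cytochrome c oxidase, had 626 to 773 FPKM in XX controls (median 663) and 382 to 534 FPKM in XX DSD gonads (median 485) (1.47-fold lower, adjusted p = 0.00050). *NDUFS7* (chr20:57443253-57449146), of complex I, fell 1.597-fold (adjusted p = 0.0019). With the length and density trends removed the group median was 0.04, with 4 higher and 6 lower, and neither gene passed with the litter block (0.054 and 0.078). Of 28 cytosolic ribosomal proteins, whose copies and pseudogenes make read assignment uncertain, 1 was higher and 8 were lower. *RPS3A* (chr15:49066731-49073042) rose 1.33-fold and *RPS23* (chr3:25208658-25212356) fell 1.68-fold (adjusted p = 0.00054 and 0.00062). The median of that group changed sign with the trends removed, from −0.18 to 0.03, with 4 higher and 4 lower, and the litter block left 1 and 1.

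Splicing kinases and SR proteins gave no higher and 8 lower of 24 (median −0.21), 1 of them lower with the litter block. *SRSF3* (chr12:5677183-5689723) ranged from 119 to 163 FPKM (median 139) in XX DSD gonads and from 169.2 to 184 FPKM (median 177) in XX controls, a fall of 1.28-fold (log2 fold change −0.36, SE 0.07, adjusted p = 0.0014). *SRSF6* (chr24:31217126-31226192) and *SRSF5* (chr8:43512695-43519018), splicing factors like it, fell 1.46-fold and 1.52-fold (adjusted p = 0.0059 and 0.0061), and *LUC7L3* (chr9:26620663-26651920), of the U1 particle, fell 1.36-fold (adjusted p = 0.0058). In C3512 and C3515 *SRSF6* was at 201 and 184 FPKM, inside the control range of 180.2 to 260.2, and with d37 embryos alone it did not pass (−0.12, adjusted p = 0.40). *SRSF3* passed with the litter block (adjusted p = 0.044) and *SRSF6*, *SRSF5* and *LUC7L3* did not (0.088, 0.11 and 0.14).

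Of 44 histone-modifying and Mediator genes, 3 were higher and 9 lower (median −0.04), against none and 2 with the litter block. *MED11* (chr5:31820154-31823009) and *MED16* (chr20:57771527-57783074), subunits of the Mediator that links factors to RNA polymerase, fell 1.61-fold and 1.76-fold (adjusted p = 0.00012 and 0.00024). *DOT1L* (chr20:56803656-56852539), the methyltransferase of histone H3 in gene bodies, went from 12.5 ± 0.94 to 7.76 ± 1.27 FPKM (1.61-fold, adjusted p = 0.00030). The groups were separate for the 3 genes, and *DOT1L* had an adjusted p of 0.051 with the litter block. Immediate early genes, which respond within minutes to serum, growth factors or handling, gave 2 higher and 5 lower of 18. *IER2* (chr20:49071203-49073275), an early response factor, ranged from 4.81 to 8.80 FPKM (median 5.94) in XX DSD gonads and from 11.6 to 14.7 FPKM (median 13.4) in XX controls. It fell 2.13-fold (log2 fold change −0.99, SE 0.10, adjusted p = 2.7e-05). *IER3* (chr12:528742-530295), which acts on cell survival, and *MYC* (chr13:25200392-25205878), the growth factor of transcription, fell 2.72-fold and 1.49-fold (adjusted p = 0.00056 and 0.00050), while *FOSL2* (chr17:22337662-22365558), an AP-1 subunit, rose 1.46-fold (adjusted p = 0.00057). Of these 4, *IER3* alone did not pass with the litter block (adjusted p = 0.050).

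Targets of p53 and CDK inhibitors gave 4 higher and 3 lower of 16. *CCNG1* (chr4:47792613-47808322) and *ZMAT3* (chr34:12527912-12575419), which p53 induces, rose 1.31-fold and 1.78-fold (adjusted p = 0.0019 and 0.0021) with separate groups, while *GADD45G* fell. *CCNG1* had an adjusted p of 0.052 with the litter block. Of 30 genes of glutathione and oxidant defence, 7 were higher and 1 lower, against 2 and none with the litter block and 7 and 9 with d37 embryos alone. *GPX7* (chr15:8777532-8833147) and *GPX8* (chr2:42532256-42537346), peroxidases of the endoplasmic reticulum, rose: *GPX7* ranged from 119 to 145 FPKM (median 132) in XX DSD gonads and from 76.7 to 103 FPKM (median 95.2) in XX controls (log2 fold change 0.50, SE 0.07, adjusted p = 0.00020). *GPX8* rose 1.36-fold (adjusted p = 0.0017), also with no overlap. *CAT* (chr18:33383004-33422538), peroxisomal catalase, and *PRDX1* (chr15:14838567-14855841), a thiol peroxidase, rose 1.32-fold and 1.26-fold (adjusted p = 0.0045 and 0.0085). Both peroxidases of the endoplasmic reticulum passed with the litter block (adjusted p = 0.030 and 0.047), and *CAT* and *PRDX1* did not (0.11 and 0.18).

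Chaperones and genes of the unfolded protein response gave 4 higher and none lower of 17 (median 0.18), and 1 and none with the litter block. *HSPH1* (chr25:8972958-9000762), a co-chaperone of HSP70, had 63.6 to 81.4 FPKM in XX controls (median 73.4) and 90.2 to 119.6 FPKM in XX DSD gonads (median 98.3). Its rise was 1.41-fold (log2 fold change 0.49, SE 0.08, adjusted p = 0.00079). Lysosome and autophagy genes gave 4 higher and 4 lower of 35. With d39 embryos alone 11 were higher and 2 lower, and with d37 embryos alone 2 and 18. The d37 embryos were 1 litter in each group, so age cannot be told apart from litter there. The litter block left none and 1. *ATG4B* (chr25:51496520-51519084), the protease that prepares LC3, fell 1.56-fold, from 34.5 ± 0.881 to 22.1 ± 3.88 FPKM (log2 fold change −0.63, SE 0.10, adjusted p = 0.00034). Glycolysis gave none higher and 1 lower of 9. That gene was *PFKL* (chr31:38156314-38178813), a phosphofructokinase, which ranged from 35.6 to 63.1 FPKM (median 43.8) in XX DSD gonads and from 71.5 to 88.0 FPKM (median 75.7) in XX controls (1.70-fold lower, adjusted p = 0.00022). The groups were separate for *HSPH1*, *ATG4B* and *PFKL*, and all 3 passed with the litter block (adjusted p = 0.036, 0.032 and 0.020).

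The remaining groups are given by counts alone, to be read beside 13.1% higher and 16.8% lower over all named loci. Citric acid cycle enzymes gave 2 higher and none lower of 15, proteasome subunits 4 and 2 of 26, tRNA synthetases 3 and none of 16, and translation factors 2 and 2 of 26. DNA replication and S phase gave 1 higher and 2 lower of 28 (median 0.00) and mitosis 2 and 3 of 21. The insulin and IGF pathway gave 1 and 2 of 23, the hypoxia response 5 and 1 of 19, the interferon response and antigen presentation 3 and 1 of 16, and solute transporters 4 and 2 of 36. With the litter block 1 gene of the hypoxia response was higher, 1 proteasome subunit and 1 transporter were lower, and no gene of the other 7 groups passed. Without C3512 and C3515 some of these counts were more than 1.5 times as large: 16 higher and 4 lower for lysosome and autophagy, 8 and 1 for proteasome subunits, 7 and none for tRNA synthetases, 7 and 4 each for collagens and for integrins, and 5 and 8 for cytosolic ribosomal proteins.

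**Figure D4:**
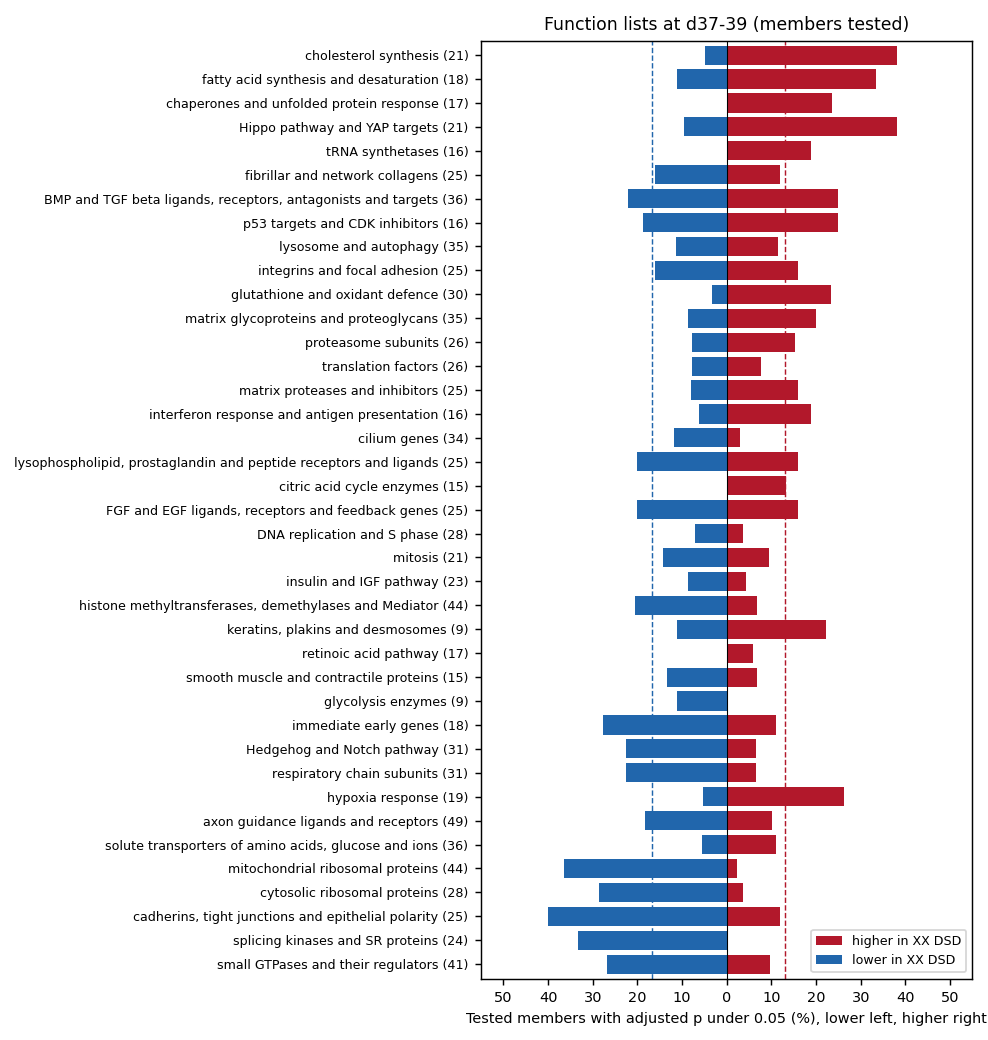
Share of tested members (horizontal axis, %) of 39 function groups that were higher (red, to the right) or lower (blue, to the left) in XX DSD gonads at an adjusted p under 0.05, ordered by median log2 fold change, with the number tested in parentheses and dashed lines at the shares over all named loci (13.1% and 16.8%). Cholesterol synthesis (8 higher of 21) is at the top and small GTPases (11 lower of 41) at the bottom.

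Marker genes were read for the cells that the dissected tissue could hold. Of the gonadal somatic markers *WT1*, *GATA4*, *EMX2* and *LHX9* were expressed in every library (mean of 45.8 FPKM or more in each group). Of 7 tested, 3 fell and none rose, among them *TCF21* (chr1:26856627-26862120; 1.61-fold, adjusted p = 0.0057) and *LHX9* (chr7:4878527-4900621; 1.36-fold, adjusted p = 0.013), factors of the early gonad. Of 9 pre-granulosa genes, *FOXL2* (1.35-fold, adjusted p = 0.011), *RSPO1* (1.61-fold, adjusted p = 0.0087) and *WNT4* (1.499-fold, adjusted p = 0.011) fell and *KITLG* rose. With the litter block the adjusted p-values of these 6 genes lay between 0.051 and 0.17. Of the 9 pre-granulosa genes, none was higher and 6 were lower with d39 embryos alone, so the rise of *KITLG* was not called there. With d37 embryos alone 1 of 8 was higher and 2 were lower. Of 12 Sertoli genes listed 9 could be measured, and *AMH* and *DHH* were not among them. None of the 7 Sertoli genes tested passed with all embryos or with d39 embryos alone. With d37 embryos alone 4 were higher and 1 lower (median 0.83), among them *SOX9*, the factor that starts Sertoli differentiation, with a log2 fold change of 1.44 (adjusted p = 0.0047), and *PTGDS*, a prostaglandin D2 synthase, with −1.07 (adjusted p = 0.0019). *SOX9* had 10.4 FPKM in C3512, and at most 4.06 in any control.

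The summed level of 11 endothelial markers was 164 to 235 FPKM in XX DSD gonads and 173 to 212 in controls. *SOX18* (chr24:47494020-47497552), a factor of vessel and lymphatic endothelium, nevertheless ranged from 0.41 to 1.93 FPKM (median 0.726) in XX DSD gonads and from 2.39 to 4.26 FPKM (median 3.04) in XX controls. It fell 3.41-fold with separate groups (log2 fold change −1.13, SE 0.15, adjusted p = 0.00016). *ROBO4* (chr5:9535214-9561375), a receptor of vessel endothelium, fell 1.61-fold (adjusted p = 0.0041; 0.10 with the litter block). The other 9 endothelial genes tested did not pass. Macrophage and lymphoid markers summed to 35.04 to 67.2 FPKM in XX DSD gonads and 36.4 to 55.5 FPKM in controls. Of 9 tested, *CD68* (1.99-fold, adjusted p = 0.012) fell, but did not pass with the litter block (0.15) or with the trends removed (0.21).

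Of markers of neighbouring tissues, those of mesonephros and kidney summed to 60.3 to 106 FPKM in XX DSD gonads and 82.5 to 102 in controls, mostly *PODXL* of podocytes and vessels, and *PAX2*, *LHX1* and *UMOD* were under 1 FPKM in every library. The 8 adrenal genes measured summed to 38.9 to 74.0 FPKM against 52.7 to 69.3. Most of that was *CHGA*, a granule protein of neuroendocrine cells, with a mean of 49.6 FPKM in XX DSD gonads and 59.2 in controls, and *CYP21A2*, the steroid 21-hydroxylase, had 1.48 and 2.15. *MC2R*, *TH*, *DBH* and *PNMT* were under 1 FPKM in every library. Liver markers summed to 3.55 to 34.2 FPKM against 8.71 to 28.6, and erythroid markers to 43.5 to 267 against 53.0 to 98.1. None of the tested kidney, adrenal, liver, erythroid, neural or gut and lung genes passed. Of skeletal muscle, *ACTA1* (chr4:9811750-9815574), skeletal actin, had 0.692 and 1.12 FPKM in C3512 and C3515 and 3.18 to 4.997 in the d39 XX DSD libraries, against 0.739 to 1.20 in controls (adjusted p = 0.011; 0.087 with the litter block). *MYOD1*, *MYOG*, *MYF5* and *CKM* were under 1 FPKM throughout. The part of cell composition in the differences above was not tested.

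Values in XY embryos were set beside these. At d37-39, 5 XY littermates, homozygous for the insertion, were compared with 6 XY controls. They came from the same 4 and 2 litters as the XX embryos, so whatever litters of a group shared, breed included, is common to both comparisons. The paper states pooling for sequencing by group, at risk or control, and does not say which pool held the XY embryos. At 11743 named loci tested there, 3.09% were higher and 6.93% lower. Of the 15 genes with the largest falls in XX DSD gonads, 11 also passed in XY littermates, all with a negative change. *PRKCDBP* had a log2 fold change of −2.71 there (adjusted p = 0.0087), *CCDC85B* of −2.10 (adjusted p = 0.0045) and *FGFRL1* of −1.35 (adjusted p = 0.0056). Of the 5 largest rises, *NEXN* (0.82, adjusted p = 0.024) and *THSD4* (0.78, adjusted p = 0.044) passed in XY littermates, and *SCD5* (0.36, adjusted p = 0.15) and *LPAR3* (0.44, adjusted p = 0.15) did not. The difference between the XX and XY changes had an adjusted p of 0.36 for *SCD5* and passed for none of these 20 genes.

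Of the lipid and junction genes, in XY littermates *SQLE* had a log2 fold change of 0.91 (adjusted p = 0.0088) and *LLGL1* of −0.80 (adjusted p = 0.014). *ELOVL2* had −0.22 (adjusted p = 0.35), and the difference from its rise in XX gonads had an adjusted p of 0.14. *MYLK* (0.26, adjusted p = 0.29) and *CTGF* (0.14, adjusted p = 0.50) did not pass in XY littermates, with adjusted p-values of 0.81 and 0.77 for the difference. Over all 12130 named loci the XX and XY changes differed at 3 (0.0247%), with 447 at an unadjusted p under 0.05. They are named here after their values were seen.

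*TNFRSF1B* (chr2:84136033-84159081), a receptor of tumour necrosis factor, had 6.77 ± 0.785 FPKM (SD, n = 6) in XX controls and 6.82 ± 1.53 FPKM (n = 8) in XX DSD gonads, with a log2 fold change of −0.01 with an SE of 0.13, adjusted p = 0.95. In XY littermates its log2 fold change was 2.40 (adjusted p = 1.1e-05). The XX change minus the XY change was −2.41 (adjusted p = 8.4e-07). *PNLIPRP2* (chr28:27190746-27212212), a pancreatic lipase-related protein, was low, with 0.16 to 0.646 FPKM in XX controls (median 0.346) and 0.541 to 1.83 FPKM in XX DSD gonads (median 1.01). It rose in XX DSD gonads (adjusted p = 0.0074; 0.18 with the litter block) and fell in XY littermates (−1.27, adjusted p = 0.014), a difference of 1.84 (adjusted p = 0.0087). The gene without a symbol ENSCAFG00000028656 (chr12:32227405-32258785) had 22.4 to 43.8 FPKM in XX controls (median 25.2) and 39.3 to 82.0 FPKM in XX DSD gonads (median 58.7). It rose 2.09-fold (adjusted p = 0.0013; 0.062 with the litter block), against −0.86 in XY littermates (adjusted p = 0.067), a difference of 1.88 (adjusted p = 0.044).

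In older embryos, 6 XX DSD gonads of d41 to d44 were compared with 3 XX controls of d44. Ages differ between those groups, so that comparison holds age as well as pedigree. Relative depth differs too, with 0.240 to 0.299 in those XX DSD libraries and 0.616 to 0.859 in those controls. The part of depth in the changes was not tested. Of 11659 loci, 28.3% were higher and 41.2% lower there. Of the 15 largest falls of d37-39, 14 also passed there, *SOX15* with −0.68 being the exception (adjusted p = 0.12). Of the 5 rises *NEXN*, *SCD5* and *LPAR3* passed. The changes at the 2 ages differed at 1149 of 11908 named loci (9.65%), and with the litter block at none, where 1691 had an unadjusted p under 0.05. *SCD5* rose less in the older embryos, by a log2 fold change of 0.52, a difference of −0.68 (adjusted p = 0.034). *ADCYAP1R1* had 0.27 (adjusted p = 0.080), a difference of −0.58 (adjusted p = 0.047), and *MYLK* 0.21 (adjusted p = 0.13), a difference of −0.59 (adjusted p = 0.024). *FGFR3* had a log2 fold change of −1.36 in the older embryos, a difference of −0.85 from that at d37-39 (adjusted p = 0.021).

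Of the germ cell genes at that age, *SOX17* had a log2 fold change of −0.85 (adjusted p = 0.00027), and *DPPA3* of −0.63 (adjusted p = 0.35). *ELOVL2* rose there too (0.94, adjusted p = 3.0e-06). The polarity gene *LLGL1* fell (−0.88, adjusted p = 2.3e-06). For none of these 4 genes did the difference between ages pass.

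**Figure D5:**
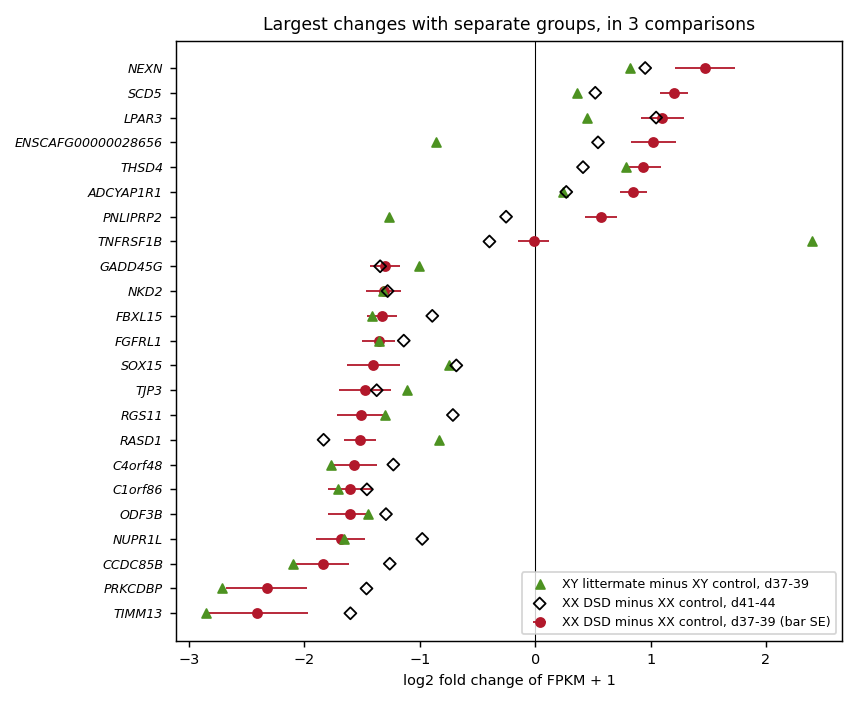
Log2 fold change of FPKM + 1 (horizontal axis) of the 20 genes with the largest changes and separate groups and of the 3 whose XX and XY changes differ (vertical axis), as XX DSD minus XX control at d37-39 (red circles, bar of 1 SE on each side), XY littermate minus XY control at d37-39 (green triangles) and XX DSD minus XX control at d41-44 (open diamonds). All 15 genes that fell lie to the left of 0 in the 3 comparisons, and *TNFRSF1B* lies at 2.40 in XY littermates and at −0.01 in XX DSD gonads at d37-39.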

How the data were processed

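PolyA RNA of embryonic dog gonads was sequenced as single-end reads, with libraries pooled by group, and the authors trimmed reads with cutadapt (1.5 in the submitters' notes), aligned them to CanFam3 with TopHat2 2.0.13 and deposited FPKM made with Cuffnorm of Cufflinks 2.2.1, as a table of 24581 annotated genes and as a table of 58781 loci of a guided transcript assembly. The first table pairs its identifiers with no gene names in the sources used here, so overall counts come from it, while named genes and gene lists come from the 19674 loci of the second table that carry a single gene name (10274 of the 11668 tested have a symbol). Coordinates are those of the deposited assembly on CanFam3.

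Groups, genotypes and litters were taken from sample labels and from the methods of the study. Genes that averaged 1 FPKM or more in one of the groups were tested on log2(FPKM + 1) by limma 3.58.1 with a mean-variance trend in R 4.3.3, two-sided, with Benjamini-Hochberg adjustment over all genes tested and a threshold of 0.05. Files were read with the R package data.table, version 1.17.8, and lists, summaries and figures were made in Python 3.11.15 with pandas 2.3.3, numpy 2.4.6 and matplotlib 3.10.9. Fold is the ratio of group means of FPKM. Gene density is the number of annotated loci within 500000 bp on each side of a locus. Embryos are separate animals, but they share litters, with a within-litter correlation of 0.524 over annotated genes and 0.540 over named loci. FPKM carry no read totals, so depth was estimated only relative to other libraries and no counting interval was made.

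Genes with a symbol were named by a rule: the stringent genes without overlap (up to 15 in each direction, by ratio), the members of each list that had the smallest adjusted p (up to 4), the 5 stringent genes with the highest mean, and the highest member of each cell type list. Not every gene of the rule is described. *TNFRSF1B*, *PNLIPRP2* and ENSCAFG00000028656 were chosen after their values were seen. Members and lists were chosen with earlier results of these data known. The main fit of XX DSD against XX control at d37-39 was first tested on simulated data with known changes. This was done over annotated genes and over named loci, with libraries drawn independently and without litters. The other fits were not simulated. Alternatives changed the pseudocount, filter, scaling, trend, age, litter, genotype and libraries used. Libraries of other ages and groups were used only for the comparisons named. Some genes that the rule selects are not reported here.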

Additional observations from a re-analysis of the deposited data

Results flagged for a closer look

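A library stood far from the others of its group, by Dixon's criterion, for 7 of the genes named. *NUPR1L* was at 3.19 FPKM in the XX DSD library C3515, *SOX9* at 10.4 FPKM in C3512 and *CAT* at 69.4 FPKM in C3636. Among controls *RGS11* was at 8.35 FPKM in A1086, *COL9A2* at 4.09 FPKM in A1098, *ITGA7* at 11.6 FPKM in A1089 and *TCF21* at 24.4 FPKM in A1097. The XX DSD library C3633 was marked in the same way for its summed FPKM of 1025722 at loci without an annotated gene. Of 266 groups of values examined 8 were marked, and chance alone marks about 1 in 20.

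Of the genes described above, the changes of 9 differed between d41-44 and d37-39 by limma (adjusted p under 0.05 for the difference). The change at d41-44 minus that at d37-39, on the log2 scale, was −0.68 for *SCD5*, −0.58 for *ADCYAP1R1*, −0.34 for *TIMP3*, −0.38 for *ITGA7*, −0.59 for *MYLK*, −0.85 for *FGFR3*, −0.55 for *FOXL2*, −1.54 for *ACTA1* and −0.82 for *PNLIPRP2*. None of these differences passed with litter as a random block. Between sexes the XX change minus the XY change was −2.41 for *TNFRSF1B*, 1.84 for *PNLIPRP2* and 1.88 for ENSCAFG00000028656.

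Loci without an annotated gene entered only the count over all loci of the assembly. They held a summed FPKM of at least 210038 in each d39 XX DSD library, above the 93863 of the highest control. What these loci are was not tested.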

How the results depend on the processing

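Numbers of called genes depended on how litters and ages were treated. Over annotated genes, 4340 passed at an adjusted p under 0.05, with 53 stringent genes higher and 358 lower. These 3 counts were 897, 27 and 170 with litter as a random block (within-litter correlation 0.524), 41, 3 and 36 with 1 value per litter (2 against 4 values, so fewer samples), and 7394, 141 and 391 with d37 embryos alone (1 litter each). With d39 embryos alone 104 were higher, and over all loci of the assembly 129. Over named loci 218 were lower, 187 with the gene density trend removed and 173 with that and the exon length trend removed. With quantile normalization 74 were higher and 295 lower, so that 79.9% of stringent genes were lower in place of 87.1%, and the cause was not tested. Leaving out 1 library at a time gave 3307 to 4726 genes, 45 to 62 higher and 293 to 375 lower. Leaving out C3512 and C3515 together, chosen after their values were seen, gave 4573, 71 and 369. Of list members, 288 were called, 54 with the litter block and 588 with d37 embryos alone, beside 3482, 591 and 6538 of all named loci tested. The difference between ages was called at 0 annotated genes with the litter block (1847 at an unadjusted p under 0.05 by limma) against 513. The difference between XX and XY changes was called at 2 to 4 annotated genes under its alternatives against 3 (528 at an unadjusted p under 0.05).

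Of 180 named genes that passed, 65 did so with the litter block, 28 with 1 value per litter, 150 with d39 and 145 with d37 embryos alone, 152 with the exon length and density trends removed, and 172 without C3512 and C3515. With d37 embryos alone the sign turned for 3 of the 180, *CEP41* (−0.38), *PSMC1* (−0.046) and *ACTA1* (−0.095), and with the trends removed for *RPL13A* (0.013), all as log2 fold changes. It also turned with d37 embryos alone for *CDH16* (−0.56) and *CSF1R* (−0.50), which passed there but not over all 14 libraries. No paired analysis was possible because replicate numbers in the labels pair no XX DSD embryo with a control embryo. Removal of the density trend could not be run on annotated genes, which have no positions in the deposited table. Depth limits what can be said of genes under 1 FPKM, which were not tested.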
